A study of Mus musculus with 4 samples.

Results

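The mitochondrial ribosomal protein genes are the nuclear genes whose symbol is Mrpl or Mrps followed by a digit, taken by that name from the protein-coding genes of the RefSeq table for mm10 (GRCm38.p6). The rule found 78 genes, 49 named Mrpl and 29 named Mrps, of 21887 protein-coding genes on the nuclear chromosomes. Each was described by the open chromatin within 1 kb of either end of the gene, by the width of the peaks there and by regions away from gene ends within 50 kb of it. Mitochondrial ribosomes translate the few proteins still encoded by mitochondrial DNA, all of them parts of the respiratory chain and ATP synthase. Their ribosomal RNAs come from the mitochondrial genome, while every protein is encoded in the nucleus, made in the cytosol and imported. Mrpl names stand for the large subunit, which joins amino acids, and Mrps names for the small subunit, which reads the mRNA, although the proteins of Mrps18a and Mrps30 sit in the large subunit and that of Mrps36 is known as a part of the 2-oxoglutarate dehydrogenase complex.

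The cells were mpkCCD clone 11, a single immortalised clone of mouse cortical collecting duct cells with features of principal cells, the kidney cells in which vasopressin sets water permeability. Both groups were grown to confluence on permeable supports and moved to medium without serum or hormones. One group then received 0.1 nM dDAVP, an analogue of vasopressin selective for the V2 receptor, and the other its vehicle, for 30 minutes. Accessible DNA was mapped by ATAC-seq, a transposase assay of open chromatin, on 50000 cells for each of 2 dDAVP and 2 vehicle libraries. Whether the replicates came from separate cultures is not in the labels, and p-values then measure only a spread that could be technical.

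The peak lists held 393956 and 206972 peaks in vehicle replicates 1 and 2 and 291454 and 205771 in dDAVP replicates 1 and 2, a ratio of 1.91 between the longest and the shortest list. They give positions only, so the depth is unknown and peak height could not be compared. Peaks at a gene end were found in all 4 libraries at 6 of 8 principal cell markers and in 2 libraries at Aqp3 and the V2 receptor gene Avpr2. Of 6 markers of podocytes, endothelium and leukocytes, 1 was open in all 4, and Ptprc and Nphs1 had none in any library.

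Nearly every mitochondrial ribosomal protein gene had an open end in every library. A gene-end peak, meaning a peak within 1 kb of either end of the gene, was present in all 4 libraries at 76 of 78 genes (97.4%), beside 65.0% of all protein-coding genes. The counts were 77 and 78 of 78 in vehicle replicates 1 and 2 and 77 and 76 in dDAVP replicates 1 and 2, where the share of all protein-coding genes was 78.2, 70.0, 74.2 and 69.4%. The members' count thus stayed within 2 genes while the background share moved with the length of the list. All 29 Mrps genes and 47 of 49 Mrpl genes were open in all 4 libraries. The 33 members listed as specific to mitochondria were all open, and 43 of 45 listed with a bacterial counterpart were. That split follows a fixed list of names and was not checked against protein structures. Members lie on chromosomes that differ in how densely peaks were called, and weighting all genes by the members' chromosomes gave a background of 68.0%. On chromosomes 4, 7 and 13, where 51.4% of genes were open in all 4 libraries, 15 of 15 members were.

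Cytosolic ribosomal protein genes and complex I subunit genes came close to this level, with 75 of 79 (94.9%) and 39 of 40 (97.5%) open in all 4 libraries. The cytosolic genes not counted were Rpl32l, Rpl31-ps12, Rpl17 and Rps2. Of these, Rps2 had a peak within 1 kb of its annotated start in all 4 libraries. Genes that act with the mitochondrial ribosome came close to the members' level too. All 5 genes for mitoribosomal proteins with other names were open in all 4 libraries, as were all 24 of mitochondrial translation factors and ribosome assembly and all 5 of mitochondrial transcription. Dap3, which encodes a GTP-binding protein of the small subunit, had a gene-end peak of 1611 ± 111 bp (SD, n = 4 libraries), and Gadd45gip1, for a large-subunit protein, one of 619.5 ± 49.3 bp. Tfam, for a factor that packages mitochondrial DNA and takes part in its transcription, had one of 1052 ± 147 bp. Of 9 genes for regulators of mitochondrial genes 8 were open in all 4 libraries, among them Yy1 (2612 ± 141 bp), Gabpa (1996 ± 89.5 bp) and Nrf1 (1605 ± 223 bp). These shares were not tested against each other, since genes are not replicates.

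The 2 exceptions, Mrpl24 and Mrpl4, had wide peaks inside the gene in every library. Mrpl24 (chr3:87918131-87923450), for a large-subunit protein with a bacterial counterpart, had its single gene-end peak, 259 bp wide, in vehicle replicate 2. Its annotated start lies 1413 bp inside the outer end, and the peak at that start was 745 and 661 bp wide in vehicle replicates 1 and 2 and 767 and 651 bp in dDAVP replicates 1 and 2, so the groups overlapped. Mrpl4 (chr9:21001252-21008839), whose bacterial counterpart lines the exit tunnel of the nascent chain, had gene-end peaks of 215 and 184 bp in vehicle replicates 1 and 2, of 220 bp in dDAVP replicate 1 and none in dDAVP replicate 2. A peak beginning 1140 to 1371 bp inside its lower end measured 725 and 1110 bp in the vehicle libraries and 1282 and 918 bp in the dDAVP libraries. At both genes the internal peak was present in all 4 libraries and wider than any peak at the ends.

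At most members with an annotated start, the open end was the start of the gene. A start was annotated in the RefSeq promoter table for 69 of the 78 members, and all 69 had a peak within 1 kb of it in all 4 libraries, beside 64.6% of 17492 protein-coding genes with an annotated start. The start base itself was covered in all 4 libraries at 67 of 69 members (97.1%), beside 54.7% of these genes. The far end told the opposite: where it lay over 2 kb from every annotated start, 10 of 64 members (15.6%) had a peak within 1 kb of it in all 4 libraries, beside 15.5% of all such genes. One exception was Mrpl20, whose protein helps the large subunit to assemble in bacteria and whose peak of 593.5 ± 48.5 bp (SD, n = 4) did not reach the annotated start in any library. The other was Mrps10, of the small-subunit head, whose peak covered the start base in 3 libraries.

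Cover was highest across the start. The share of the 69 members covered by a peak reached its highest value, 98.6%, at position -80 (counted from the start base as 0) in each of the 4 libraries. It held that value to position -20 and 120 in vehicle replicates 1 and 2 and to 140 and 180 in dDAVP replicates 1 and 2, and was 97.1% at the start base in vehicle replicate 1. Over all genes the highest share was 63.7% and 57.2% in vehicle replicates 1 and 2 and 60.8% and 56.9% in dDAVP replicates 1 and 2. The peak over the start ran at the median from -341 to 399 bp in vehicle replicate 1, -380 to 410 bp in vehicle replicate 2, -347 to 403.5 bp in dDAVP replicate 1 and -401 to 418.5 bp in dDAVP replicate 2. Over all genes the median upstream edge was -375 to -409 bp and the downstream edge 554 to 562 bp. The upstream reach was thus near that of all genes, and the members' peaks were shorter on the side of the gene body.

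**Figure D1:**
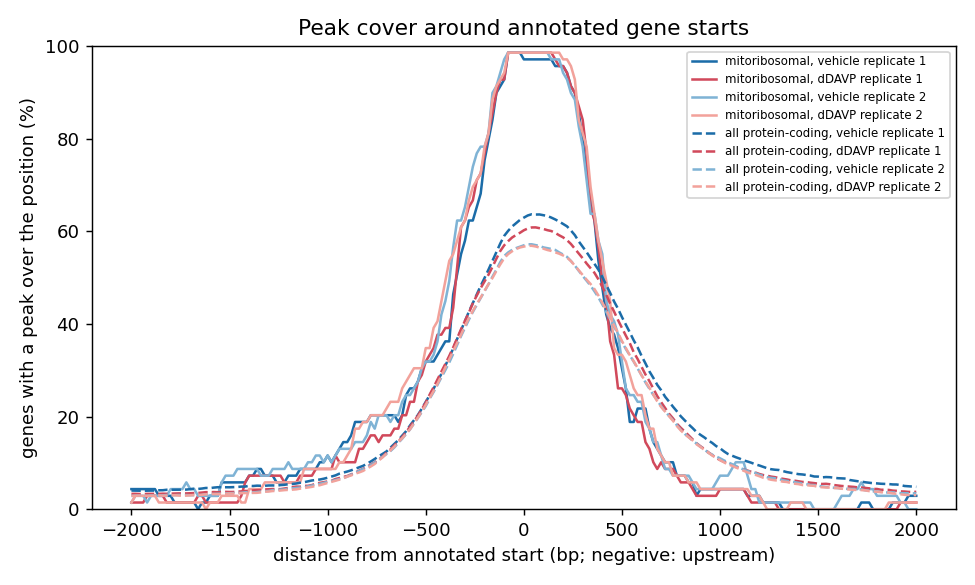
Share of genes covered by a peak (vertical axis, percent) at each distance from the annotated start (horizontal axis, bp), for the 69 mitochondrial ribosomal protein genes and for all 17492 protein-coding genes with an annotated start, 1 line per library. The members reach their highest share, 98.6%, at -80 bp in every library, above the 56.9 to 63.7% reached over all genes.

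Peaks at these genes were of moderate width and alike between libraries. The widest gene-end peak, averaged over libraries, had a median of 849 bp over the 76 members open in all 4 (quartiles 620 and 1084), beside 1001.5 bp over all genes open in all 4 (715 and 1285.5), 1010 bp over cytosolic ribosomal protein genes and 907 bp over complex I genes. The start peak, meaning the widest peak within 1 kb of the annotated start, had a median of 828.5 bp over 69 members, beside 1019 bp over all genes. At 4 members (Mrpl20, Mrpl34, Mrpl53 and Mrps10) that peak did not cover the start base in at least 1 library. The median start peak was 836 bp over Mrpl and 774.5 bp over Mrps genes. It was 744.5 bp over members listed with a bacterial counterpart and 881.5 bp over those listed as specific to mitochondria. The coefficient of variation of a member's start peak over the 4 libraries had a median of 9.38%, beside 11.4% over all genes, and was above 30% in 4 of 69 members (5.80%), beside 18.8%. Over the peaks that covered the start base in all 4 libraries (measured after seeing the data) the medians were 9.38% over 67 members and 9.61% over all genes, and 3 members (4.48%) were above 30%, beside 9.33%. The order of the members' start widths had a Spearman correlation of 0.759 to 0.900 over the 6 pairs of libraries, which share the genes and their positions, beside 0.767 to 0.850 over all genes.

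**Figure D2:**
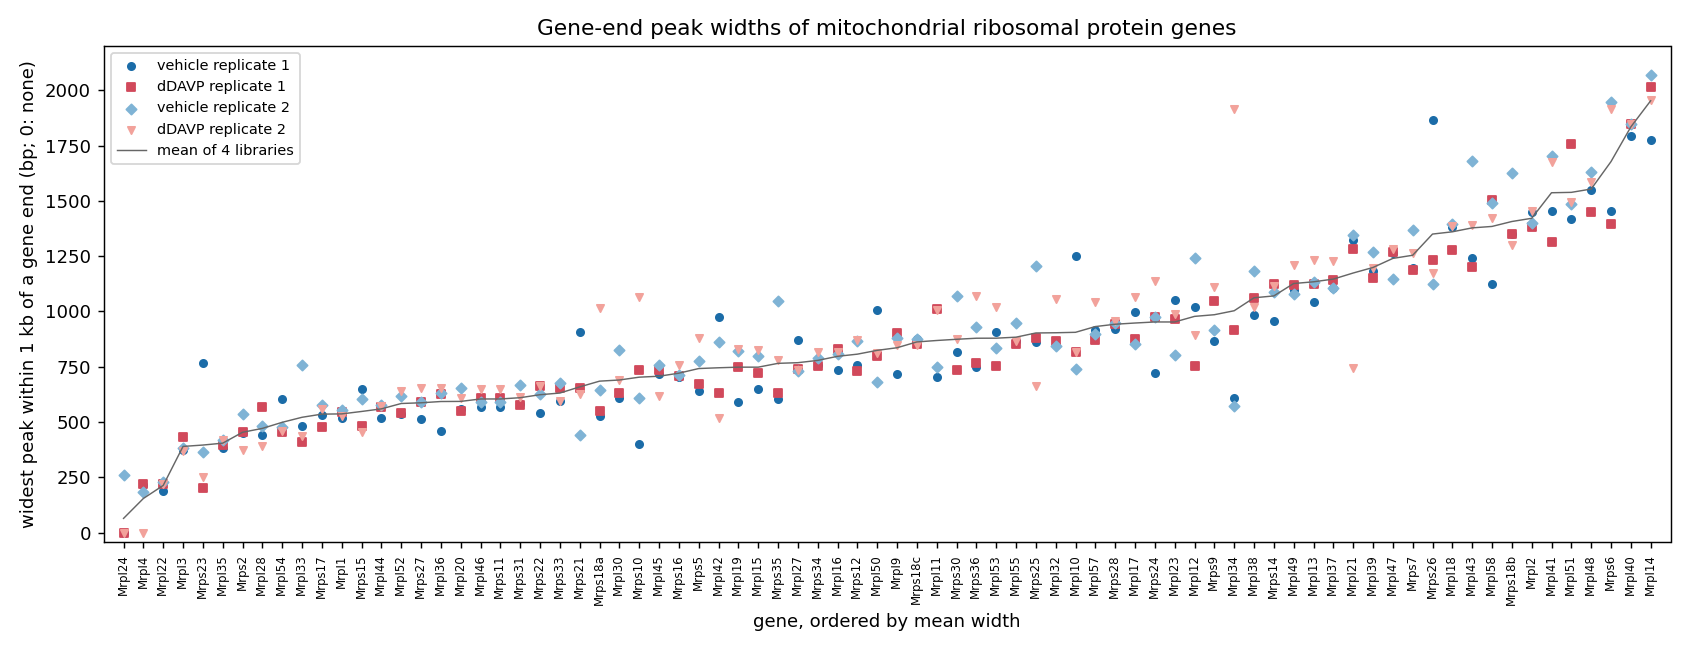
Width of the widest gene-end peak (bp) of each mitochondrial ribosomal protein gene in each of the 4 libraries, with genes ordered by their mean. The points of a gene mostly lie close together, and the order runs from 214 bp (Mrpl22) to 1952 bp (Mrpl14) among the genes with a peak in all 4 libraries.

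Of the 6 members with the widest gene-end peaks, 5 have the start of a gene on the other strand within 1 kb of their own. Mrpl14, a large-subunit protein at the interface with the small subunit, had peaks of 1774 and 2067 bp in vehicle replicates 1 and 2 and 2014 and 1954 bp in dDAVP replicates 1 and 2 (mean 1952 ± 127 bp, SD, n = 4), and its start lies 131 bp from that of Tmem63b on the other strand. Mrpl40 had 1795 and 1848 bp in vehicle and 1848 and 1845 bp in dDAVP replicates 1 and 2, with the start of the histone chaperone gene Hira 113 bp away. The groups overlapped at both genes. Mrps6, of the small subunit, had 1452 and 1947 bp in vehicle and 1394 and 1916 bp in dDAVP replicates 1 and 2. There the replicate 2 libraries were the wider ones in both groups. Mrpl48 (1553 ± 77.0 bp), Mrpl51 (1538 ± 149 bp) and Mrpl41 (1536.5 ± 186 bp) followed, all for proteins specific to mitochondria, and their means lay within 1 SD of each other.

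At the other end of the order, some narrow gene-end peaks stood at an outer end far from the start. Mrpl22, for another protein of the exit tunnel, had gene-end peaks of 187 and 231 bp in vehicle and 219 and 218 bp in dDAVP replicates 1 and 2. Its annotated start lies 1621 bp inside, where the peak was 568 ± 165 bp. Mrps23 had 766 and 366 bp in vehicle and 201 and 252 bp in dDAVP replicates 1 and 2 at the gene ends, and 1250 and 1460 bp in vehicle and 1196 and 1074 bp in dDAVP replicates 1 and 2 at its start, 10282 bp inside. In all, 6 members had their start over 1 kb inside the outer end. Mrpl3, whose bacterial counterpart reaches towards the site where peptide bonds form, had its start at the gene's end and still a narrow peak, 376 and 381 bp in vehicle and 433 and 370 bp in dDAVP replicates 1 and 2 (390 ± 29.02 bp). Mrpl35 was as narrow (405 ± 17.5 bp), and the gene-end peaks of Mrps2 (454 ± 67.4 bp) and Mrpl28 (472 ± 74.0 bp) came next. The annotated start of Mrps2 lies 2115 bp inside its outer end, and the peak at that start was 567.5 ± 46.1 bp.

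Start peaks of members with known roles spread over this whole range. In the stalk, the arm of the large subunit that recruits elongation factors, Mrpl12 measured 1022 and 1240 bp in vehicle and 754 and 895 bp in dDAVP replicates 1 and 2. Both dDAVP values lay under both vehicle values there. Mrpl10, which anchors the stalk, had 906 ± 234 bp (SD, n = 4), and Mrpl11, at its base, 744.5 ± 52.1 bp, so these neighbours in the protein did not differ beyond their spread. Mrpl44, with a fold related to RNase III, had a narrow peak of 560 ± 28.1 bp, and Mrpl58, a peptidyl-tRNA hydrolase that frees stalled ribosomes, one of 770 ± 186 bp. In the small subunit Mrps12, of the decoding centre, had 758 and 868 bp in vehicle and 732 and 870 bp in dDAVP replicates 1 and 2, and the groups overlapped. Mrps7, of the small-subunit head, was wider at 1254 ± 82.3 bp and the mitochondria-specific Mrps22 narrower at 624 ± 58.5 bp. The related genes Mrps18a, Mrps18b and Mrps18c, for copies of a single bacterial protein, had start peaks of 662 ± 236, 1316 ± 43.7 and 862 ± 14.4 bp. Mrps18a was 529 and 555 bp in vehicle and 548 and 1016 bp in dDAVP replicates 1 and 2, so 1 library sets its spread.

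Shared promoter regions were common. An end of another protein-coding gene lay within 1 kb of an end of 44 of 78 members (56.4%), beside 24.8% of all genes, 36.7% of cytosolic ribosomal protein genes and 65.0% of complex I genes. The start of a gene on the other strand lay within 1 kb of the start of 25 of 69 members (36.2%), beside 9.61% of all genes, 15.3% of cytosolic ribosomal protein genes and 35.3% of complex I genes. At 24 of the 25 members the pair pointed away from each other, and Mrpl48 and its partner Rab6a overlapped. The divergent starts were 32 to 935 bp apart, the median over all 25 members was 131 bp, and 15 were within 150 bp. Peaks at shared starts cannot be assigned to 1 gene. The start peak had a median of 1126 bp over the 25 members with such a partner and 733 bp over the other 44, beside 1184.5 and 985 bp over all genes.

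Some partners belong to mitochondria as well (chosen after the pairs were seen). Mrps12 starts 147 bp from Sars2, for the mitochondrial seryl-tRNA synthetase, Mrpl43 starts 116 bp from Twnk, for the mitochondrial DNA helicase, and Mrpl47 starts 308 bp from Ndufb5, for a complex I subunit. The closest ends of other genes, by the rule for named genes, were those of Apba3 at Mrpl54 (9 bp), Ighmbp2 at Mrpl21 and Ccdc142 at Mrpl53 (13 bp each), Slc5a3 at Mrps6 (14 bp), Klc4 at Mrpl2 (17 bp) and Ndufs6, for another complex I subunit, at Mrpl36 (21 bp). A single pair joined a large-subunit with a small-subunit gene. Mrpl46 and Mrps11 start 42 bp apart on opposite strands under 1 peak, which was 569 and 591 bp wide in vehicle replicates 1 and 2 and 609 and 649 bp in dDAVP replicates 1 and 2. All of the sequence between these starts is shown here, from RefSeq on GRCm38.p6, 5′ to 3′ in the direction of Mrps11.
Mrps11, chr7:78783090-78783130, plus strand: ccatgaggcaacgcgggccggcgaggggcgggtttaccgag
The stretch of 41 bases is rich in G and C and lies under the shared peak in all 4 libraries.

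Upstream sequences of the members were compared with those of all genes by exact letters. Each of 10 motifs was searched on both strands of the 300 bases from 250 before to 50 after the start, in 69 members, in the 11295 genes with a start peak in all 4 libraries and in all 17492 genes with a sequence. No motif contains another, but matches of different motifs can overlap. The ETS motif (CCGGAAG), bound by a family that includes GABPA, was present in 26 members (37.7%), beside 18.5% of open and 12.9% of all promoters. The YY1 motif (AAGATGGC) was present in 12 (17.4%), beside 4.80% and 3.57%, and the NRF1 motif (GCGC, 1 base of any kind, then TGCGC) in 13 (18.8%), beside 10.5% and 7.17%. NRF1, GABPA and YY1 are known as regulators of nuclear genes for mitochondrial proteins. At least 1 of these 3 motifs was in 43 members (62.3%), beside 29.8% of open and 21.03% of all promoters.

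The mix differed from that of the other gene groups. Cytosolic ribosomal protein promoters held the ETS motif in 22 of 59 (37.3%), the NRF1 motif in 4 (6.78%) and the YY1 motif in 5 (8.47%). Complex I promoters held the ETS motif in 4 of 34 (11.8%) and the NRF1 and YY1 motifs in 7 each (20.6%). The members thus had the share of ETS matches of the first group and shares of NRF1 and YY1 matches near those of the second, as a description with no test over genes. Among the members the NRF1 motif was in 10 of 43 Mrpl and 3 of 26 Mrps promoters, the ETS motif in 15 and 11 and the YY1 motif in 6 and 6.

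The other motifs were at or below the level of open promoters, apart from the ZNF143 motif (ACTACAA), in 5 members (7.25%) beside 4.75% of open promoters. The Sp/KLF motif (GGGCGG) was in 34 members (49.3%), beside 67.3% of open and 49.2% of all promoters, and the NF-Y motif (CCAAT) in 27 (39.1%), beside 42.9% and 42.3%. The TATA motif (TATAAA) and the E-box (CACGTG) were in 5 each (7.25%), beside 9.61% and 11.4% of open promoters, and the AP-1 motif (TGANTCA) in 3 (4.35%), beside 6.22%. The CRE (TGACGTCA), the palindrome bound by the cAMP-responsive factor CREB, was in 2 members, Mrpl16 and Mrpl49 (2.90%), beside 3.47% of open and 2.54% of all promoters. G and C made up 58.3% of the members' 300 bases at the median (range 42.3 to 78.0%), beside 60.7% in open and 56.3% in all promoters. The ratio of observed to expected CpG was 0.818, beside 0.750 and 0.577. Start peak width and G and C content had a Spearman correlation of 0.559 over the 69 members, which are points of the same libraries, and width and the CpG ratio one of 0.330.

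**Figure D3:**
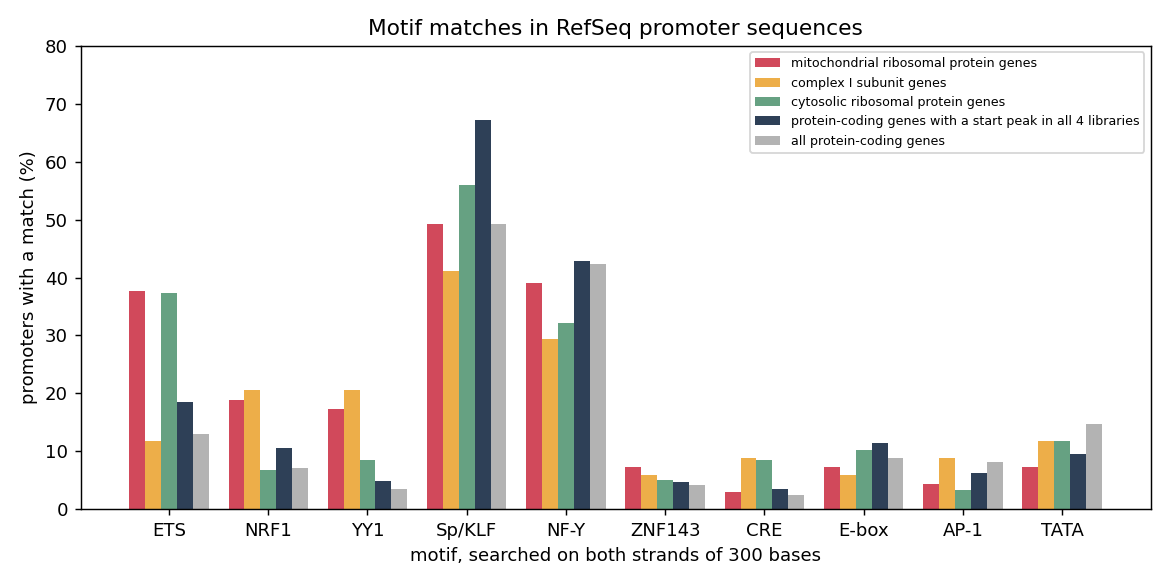
Share of promoters (vertical axis, percent) that hold each of the 10 motifs (horizontal axis) within 300 bases at the start, for the mitochondrial ribosomal protein genes, cytosolic ribosomal protein genes, complex I genes, genes with a start peak in all 4 libraries and all genes. The ETS motif stands at 37.7% of members beside 18.5% of open promoters, and the Sp/KLF motif at 49.3% beside 67.3%.

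Matches lay close to the start. With 1 start per gene, the 28 ETS matches in 24 members had a median position of -16.5 and 17 lay within 100 bases upstream. The 16 NRF1 matches in 13 members had a median position of -43.5, with 11 within 100 bases upstream. The YY1 matches lay elsewhere: 8 of 12 were downstream of the start, all 8 in the direction of the gene, and their median position was 15. All 28 ETS, 16 NRF1 and 12 YY1 matches were inside a peak in all 4 libraries, as were 62 of 63 Sp/KLF and 32 of 40 NF-Y matches. The bases searched lie at the start, which a peak covered in all 4 libraries at 67 of 69 members. Position inside a peak therefore does not set the ETS, NRF1 and YY1 motifs apart. Members with an NRF1 match had a median start peak of 932 bp (n = 13) and those without one 788.5 bp (n = 56), while with and without an ETS match the medians were 818 and 836 bp.

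The 130 bases before the start are shown for 4 members with an NRF1 match, in capitals, from RefSeq on GRCm38.p6 and 5′ to 3′ in the direction of the gene. Mrpl9, Mrpl32 and Mrpl39 hold the same fully palindromic letters at positions -28, -87 and -125, and Mrpl12, of the stalk, holds a variant at -81.
Mrpl9, chr3:94443206-94443335, plus strand: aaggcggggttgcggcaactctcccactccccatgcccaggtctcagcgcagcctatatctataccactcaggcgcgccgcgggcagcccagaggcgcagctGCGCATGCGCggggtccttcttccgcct
Mrpl32, chr13:14613038-14613167, minus strand: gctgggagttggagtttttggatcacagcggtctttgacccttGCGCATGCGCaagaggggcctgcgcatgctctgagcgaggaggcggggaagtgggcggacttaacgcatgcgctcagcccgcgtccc
Mrpl39, chr16:84735245-84735374, minus strand: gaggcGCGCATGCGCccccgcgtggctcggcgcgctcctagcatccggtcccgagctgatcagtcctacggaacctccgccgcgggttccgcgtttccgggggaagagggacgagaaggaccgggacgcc
Mrpl12, chr11:120484507-120484636, plus strand: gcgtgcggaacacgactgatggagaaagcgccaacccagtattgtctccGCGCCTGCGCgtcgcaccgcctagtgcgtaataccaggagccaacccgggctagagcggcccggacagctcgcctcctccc
The start peaks of Mrpl9, Mrpl32 and Mrpl39 were 836 ± 83.1, 904 ± 102 and 1199 ± 49.7 bp (SD, n = 4 libraries).

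The same stretch is shown for 3 members with an ETS match in capitals, Mrpl3 for its narrow peak and Mrps22 and Mrps18a from the genes named for their role. The match begins at -19, -11 and -26, and in all 3 it reads in the direction of the gene.
Mrpl3, chr9:105053138-105053267, plus strand: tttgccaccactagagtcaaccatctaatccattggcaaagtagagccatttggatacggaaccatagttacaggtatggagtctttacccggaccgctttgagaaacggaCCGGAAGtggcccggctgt
Mrps22, chr9:98601680-98601809, minus strand: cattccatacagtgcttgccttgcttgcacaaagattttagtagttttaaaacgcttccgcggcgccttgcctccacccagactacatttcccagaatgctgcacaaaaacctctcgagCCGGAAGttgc
Mrps18a, chr17:46110874-46111003, plus strand: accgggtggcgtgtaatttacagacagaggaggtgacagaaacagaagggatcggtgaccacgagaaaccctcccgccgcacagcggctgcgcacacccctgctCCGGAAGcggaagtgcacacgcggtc
Mrps18a also holds a YY1 match 11 bases after its start, beyond the stretch shown.

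Regions away from gene ends were about as many around these genes as around all protein-coding genes. Counted from the gene body, they were fewer than around genes with open ends. Distal regions were merged peaks present in all 4 libraries, outside the 1 kb windows at every gene end and within 50 kb of the gene. The median was 4 per member (quartiles 2 and 8, mean 5.31) and 4 per protein-coding gene (quartiles 1 and 8, mean 5.43). No distal region was found at 5 members (6.41%), beside 13.9% of all genes. Among genes open at an end in all 4 libraries the median was 4 (mean 5.26) for members and 5 (mean 6.74) for all, and 6.58% and 6.20% had none. Cytosolic ribosomal protein genes open in this way had a median of 4 (mean 4.67) and complex I genes one of 5 (mean 5.18). Members are shorter than other genes, with a median length of 7690.5 bp beside 17169 bp, which shortens the span searched. Counted within 50 kb of the annotated start instead (an alternative chosen after seeing the data), the median was 3 for members and for all genes, and the means were 4.59 and 3.87. Counted from the gene body, the members' counts were thus at the level of all protein-coding genes and lower than those of genes with open ends. Cytosolic ribosomal protein and complex I genes with open ends had means no higher than that of the members.

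The distal regions were unevenly shared out. There were 413 distinct regions, 34 of them over 1500 bp wide, and 45 of the 414 pairs of a member and a region (10.9%) lay inside the member, at 22 members. These counts take in 6 pairs, at Mrpl22, Mrps23, Mrps2, Mrpl24 and Mrpl48, where the region lies within 1 kb of the member's own annotated start inside the gene, and 23 of the 413 regions lie within 1 kb of the annotated start of some gene. Without all regions at annotated starts (an alternative chosen after seeing the data) the median stayed at 4 for members and for all genes, with means of 5.01 and 5.23. The number was 10 or more at 14 members and 1 to 4 at 43. Mrps28, a small-subunit gene of 121712 bp (chr3:8802146-8923857), had the most, 23, of which 8 lay inside it, and Mrps6, of 53892 bp, had 21 with 7 inside. Mrpl21 had 19 and Mrpl14 16, with 1 inside each, Mrps10 had 14 with 3 inside, and Mrpl11 had 14 with 0 inside. None was found at Mrpl37, Mrpl23, Mrpl17, Mrps30 and Mrpl3. Their start peaks were open all the same, 1106 and 1107 bp in vehicle and 1143 and 1229 bp in dDAVP replicates 1 and 2 at Mrpl37, and 953 ± 106 bp (SD, n = 4) at Mrpl23. Mrpl37 lies on chromosome 4, Mrpl23 and Mrpl17 on 7, Mrps30 on 13 and Mrpl3 on 9. The median number of peaks per library there was 5558, 4987.5, 6235 and 9064.5, beside 26197.5 on chromosome 3, which holds Mrps28. Distal counts were not adjusted for the chromosome.

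**Figure D4:**
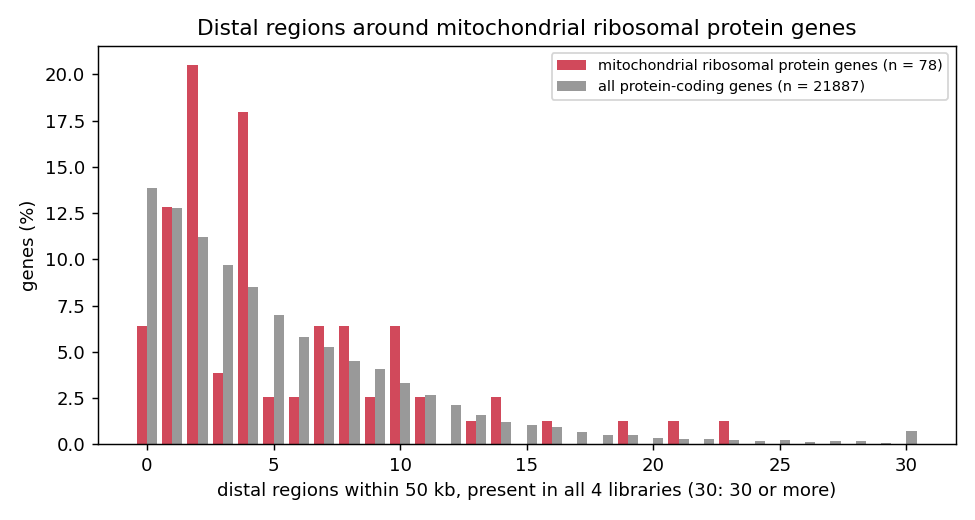
Share of genes (vertical axis, percent) by the number of distal regions within 50 kb (horizontal axis), for the 78 mitochondrial ribosomal protein genes and all 21887 protein-coding genes. Both centre on a median of 4, and 6.41% of members beside 13.9% of all genes have 0.

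The widest distal region lay 44746 bp from Mrpl11, at chr19:4914548-4917406. Its peaks measured 2369 and 2087 bp in vehicle replicates 1 and 2 and 1745 and 1140 bp in dDAVP replicates 1 and 2. The next were 20087 bp from Mrps23 (chr11:88171316-88174019), with 2172 and 1245 bp in vehicle and 1802 and 1600 bp in dDAVP replicates 1 and 2, and 3136 bp from Mrps31 (chr8:22432805-22435187), with 2289 and 2002 bp in vehicle and 1835 and 2232 bp in dDAVP replicates 1 and 2. The treatments overlapped at the regions near Mrps23 and Mrps31 and did not at the region near Mrpl11. Nothing in these lists links a distal region to a gene other than distance.

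The design asks whether 30 minutes of dDAVP changed accessibility. At the mitochondrial ribosomal protein genes no change passed a test. No member had a gene-end peak in both libraries of one treatment and neither of the other, where 0.210% of all genes had the pattern for dDAVP and 0.864% that for vehicle. The number of members with a gene-end peak was 77.5 ± 0.707 in vehicle and 76.5 ± 0.707 in dDAVP (SD, n = 2 each; exact two-sided permutation p = 0.667). The median gene-end peak per library was 766 and 823.5 bp in vehicle and 754 and 857.5 bp in dDAVP replicates 1 and 2, a difference of 11 bp (exact two-sided permutation p = 1). Distal peaks per member, counted in each library, averaged 21.1 and 11.5 in vehicle and 15.4 and 11.4 in dDAVP replicates 1 and 2, a difference of -2.93 (exact two-sided permutation p = 0.667). With 2 against 2 libraries the smallest p possible is 0.333. Over all genes the same averages were 24.3 and 12.7 in vehicle and 18.01 and 12.6 in dDAVP, so they moved with the length of the lists.

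Widths were then compared region by region with limma on quantile-normalized log2 widths of the 88231 regions present in all 4 libraries. The 88 such regions within 1 kb of the ends of 76 members, 1 of them shared by 2 members, included 0 called at an adjusted p of 0.05, beside 0 of all 88231. A further 6 regions at annotated starts inside 5 members included 0 called as well. At an unadjusted p of 0.05 there was 1 of 88, beside 5.28% of all regions. The smallest adjusted p (limma) was 0.937 among the members and 0.870 over all regions. The median difference was 0.11 log2 (dDAVP minus vehicle) at the members' regions and 0.04 over all, and 60 of 88 (68.2%) were wider in dDAVP, beside 54.1% of all regions. The members' median was 0.02 log2 without quantile normalization and 0.12 with median centring. It was -0.08 without vehicle replicate 1 and -0.01 without dDAVP replicate 2. Without dDAVP replicate 1 it was 0.15 and without vehicle replicate 2 it was 0.27, so its sign depended on single libraries. In 50 of 88 (56.8%) the difference had the same sign in both replicates, beside 50.5% of all regions. The median size of the difference, regardless of sign, was 0.14 log2 at the members and 0.32 over all regions.

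The region with the smallest p was not at a start. It lies past the far end of Mrpl16 (chr19:11775843-11778056), a large-subunit gene with an end 162 bp from an end of Stx3. Its summed peak width was 1912 and 1402 bp in vehicle replicates 1 and 2 and 111 and 531 bp in dDAVP replicates 1 and 2, a difference of -2.68 ± 0.90 log2 (SE, n = 2 each; limma adjusted p = 0.937). The start region of Mrpl16 measured 552 and 807 bp in vehicle and 830 and 817 bp in dDAVP (0.40 ± 0.40 log2, SE; limma adjusted p = 1.00). At Mrpl11 a region past the far end (chr19:4967463-4968512) was 726 and 543 bp in vehicle and 1013 and 1008 bp in dDAVP replicates 1 and 2 (0.75 ± 0.28 log2, SE; limma adjusted p = 0.958). The groups did not overlap at either far-end region, and neither passed the test.

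The other 4 regions named by their p had adjusted p-values (limma) of 1.00. At Mrpl34 (chr8:71463259-71465295) widths were 1205 and 1083 bp in vehicle and 1631 and 1914 bp in dDAVP replicates 1 and 2 (0.67 ± 0.29 log2, SE). At the start of Mrps10 (chr17:47368602-47369899) they were 541 and 608 bp in vehicle and 830 and 1066 bp in dDAVP (0.78 ± 0.36 log2, SE). At Mrpl42 (chr10:95501236-95502455) they were 974 and 861 bp in vehicle and 630 and 517 bp in dDAVP (-0.61 ± 0.28 log2, SE), and at a region before the start of Mrpl53 (chr6:83107495-83108410) 907 and 836 bp in vehicle and 677 and 599 bp in dDAVP. Regions of both directions were thus among those with the smallest p.

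**Figure D5:**
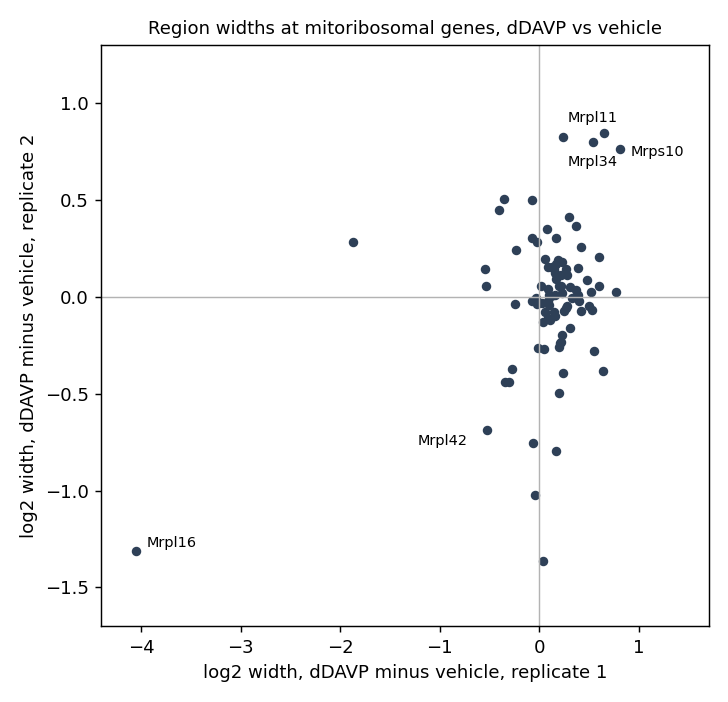
Difference in log2 summed peak width, dDAVP minus vehicle, in replicate 1 (horizontal axis) and replicate 2 (vertical axis) for the 88 gene-end regions of mitochondrial ribosomal protein genes present in all 4 libraries, 1 point per region. Most points lie near 0, and the region past the far end of Mrpl16 stands at -4.06 and -1.31.

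Non-overlap of the groups was about as common as elsewhere. The widest gene-end peak was wider in both dDAVP libraries than in both vehicle libraries at 15 of 76 members (19.7%), beside 14.9% of all genes, and narrower at 8 of 76 (10.5%), beside 14.4%. Mrpl46 and Mrps11 count among the 15 with their shared peak. Mrpl12, of the stalk, was among the 8. Of 2385 distal regions within 50 kb of a member in any library, 413 were present in all 4 (17.3%), beside 13.9% of all distal regions. Those seen in each dDAVP library and in no vehicle library numbered 47 (1.97%), beside 1.65%, and those with the opposite pattern 86 (3.61%), beside 3.41%. These shares were near the background.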

How the data were processed

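ATAC-seq peak lists of 4 mpkCCD libraries were used, 1 per library. Tools listed in the submitters' processing notes are MACS2, Bowtie2, bedtools, cutadapt, Picard and SAMtools, with mm10 as the build. Their versions, roles and thresholds, and whether reads were shifted for the Tn5 cut, were not given in the sources at hand. The authors deposited peak start and end positions only, so width and presence were the values analysed. A longer list can reflect deeper sequencing, and the depth is unknown.

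Merging peaks with an overlap of at least 1 bp gave 560228 regions. Genes came from the RefSeq table on GRCm38.p6, without 13 genes of mitochondrial DNA. Starts, strands and sequences came from the RefSeq promoter table, which matched 69 members and has no entry for Mrpl4, Mrpl13, Mrpl15, Mrpl19, Mrpl38, Mrpl54, Mrps28, Mrps34 and Mrps35; 3 members have several starts. Widths were compared with limma 3.58.1 (R 4.3.3) and Benjamini-Hochberg adjustment over all regions, and values per library with exact permutation tests in Python 3.11.15. The limma step was also run on simulated widths with large planted changes and a fixed spread. That run does not show which changes could be detected in the real widths. Alternatives covered windows, peak widths, overlap, distances, normalization, a replicate block and each library left out.

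The members and gene lists were chosen with earlier results of these data known. Members are named for the 6 widest and 6 narrowest gene-end peaks, a missing gene-end peak, the 6 largest numbers of distal regions or none, the 6 closest gene ends, the 6 smallest limma p-values and their role; others were chosen after their values were seen.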

Additional observations from a re-analysis of the deposited data

How the results depend on the processing

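The count of members open in all 4 libraries was 69 to 78 under every alternative (69 being all members with an annotated start). The median gene-end width rose to 933.5 bp with all peaks of a gene summed and fell to 748 bp over members with no other gene end within 1 kb (chosen after seeing the data), and was 815 to 841 bp with 1 library left out. The median number of distal regions was 2 within 25 kb, 7.5 within 100 kb, 30 with presence in any 1 library, 2 with an overlap of 50% of both peaks and 2 with only peaks of at least their library's median width, beside 2, 7, 29, 2 and 2 over all genes. Leaving out 1 library gave 0 or 1 members with a treatment pattern: Mrpl24 (open in vehicle only) without vehicle replicate 1 and Mrpl4 (likewise) without dDAVP replicate 1. The difference in median width was -13.5 bp with the 205771 widest peaks of each library, and -40.75 to 62.75 bp with 1 library left out, falling below 0 without vehicle replicate 1 (-17.75) or dDAVP replicate 2 (-40.75). The difference in distal peaks was -7.74 to 1.88, above 0 without vehicle replicate 1, and -0.199 with equal lists. limma called 0 member regions under each of its 9 alternatives, with a smallest adjusted p of 0.773 to 0.937. Same-numbered libraries were not shown to be paired: their deviations correlated at 0.0969 over 88231 regions, with only 2 pairs. With the number as a replicate block limma called 0 (smallest adjusted p 0.874), and the differences of -1, 11 and -2.93 were unchanged by construction (exact sign-flip permutation p = 1, 1 and 0.5). Of 71 alternatives, 58 kept the result, 9 moved it and 4 reversed its sign. Unknown depth limits every statement on absent peaks.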

Other observations

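The RefSeq table lists 6 pseudogenes under these names. A peak within 1 kb of an end was present in all 4 libraries at 0 of the 6, in 1 library at 2 of them (Mrps36-ps1 in dDAVP replicate 1 and Mrpl27-ps in vehicle replicate 1) and in none at 4. Of the peaks that covered the annotated start in all 4 libraries, the smallest and the largest coefficient of variation over libraries were 1.42% (Mrpl40) and 65.1% (Mrpl34). At Mrpl34 that peak was 607 and 509 bp in vehicle and 918 and 1914 bp in dDAVP replicates 1 and 2.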
